A study of Mus musculus with 26 samples.

Results

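Microglia of the nucleus accumbens (NAc), a ventral striatal region tied to reward and motivation, were compared between wild-type mice after repeated social defeat stress (R-SDS) and naive wild-type mice. In R-SDS a mouse is defeated by an aggressive mouse in repeated sessions, and naive mice were transferred between cages instead. The comparison uses 6 of the 26 arrays of the series, chosen by their labels: 3 arrays of WT NAc microglia after R-SDS, whose mice the labels call susceptible, and 3 arrays of WT NAc microglia from naive mice. For contrast, 2 other pairs of groups were used: TLR-DKO NAc microglia after R-SDS (4 arrays, mice labelled resilient) and naive (3 arrays), and WT microglia of the medial prefrontal cortex (mPFC) after R-SDS (3 arrays, labelled susceptible) and naive (3 arrays). The labels use TLR-DKO without explaining it, and it is known to stand for loss of Tlr2 and Tlr4. All mice, naive ones included, were C57BL/6 with the CX3CR1EGFP/+ genotype, in which EGFP is expressed from a Cx3cr1 allele. Brains were perfused ice-cold 1.5 hours after the last session, the region was taken with a 1.5 mm punch, and EGFP-positive cells were sorted by flow cytometry. Each sample pooled 3 to 6 mice and gave 500 pg of total RNA, which was amplified and labelled with Cy3. Because EGFP follows the Cx3cr1 gene, the sort can also hold perivascular macrophages and monocytes.

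Defeat raises adrenal glucocorticoids. The glucocorticoid receptor waits in the cytosol with heat shock proteins and co-chaperones, enters the nucleus when it binds hormone, and as a dimer binds palindromic DNA elements near genes such as Tsc22d3, Fkbp5 and Per1. Immediate early genes of the Fos, Jun, Egr and Nr4a families are transcribed within minutes of stimulation and need no new protein for it. Microglia, the resident macrophages of the brain, sense microbial and damage-derived ligands through Toll-like receptors, which signal through the adaptors Myd88 and Ticam1 to NF-kappaB and AP-1 and so to cytokine genes.

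Levels are log2 of the array's processed signal minus that array's 75th percentile, so a difference of 1 is a 2-fold difference, and every change is R-SDS minus naive. On the 6 arrays 53.6% to 64.4% of spots were well above background, the 75th percentile of the signal ran from 155.3 to 259 units, and Pearson r between pairs of the arrays ran from 0.850 to 0.928 across genes. The 6 arrays lie on 2 slides, each scanned on its own day. Slide 1 holds R-SDS replicates 1 and 2 and naive replicate 1, and slide 2 holds R-SDS replicate 3 and naive replicates 2 and 3. Slide was a block in the fit, and slide and scan day cannot be told apart here. Tlr2 was well above background on 0 of the 14 TLR-DKO arrays, with levels from -4.60 to -3.46, and on all WT arrays of the NAc and mPFC, with levels from 0.62 to 2.68. Tlr4 was well above background on all of them, and the part of the gene that its probe reads was not checked against the deleted part.

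The fit with limma tested 21445 genes, and 0 of them passed an adjusted p of 0.05 (0%), the lowest adjusted p being 0.516. No gene can therefore be said to have changed in WT NAc microglia by this test. Changes below are given with the SE of the fit as ± where it bears on the reading, and the adjusted p is given for the leading genes. Unadjusted p was under 0.05 for 994 genes (4.64%), of which 508 were higher after R-SDS (2.37%) and 486 lower (2.27%). All 3 R-SDS arrays stood above all 3 naive arrays for 1062 genes (4.95%) and below them for 858 genes (4.00%). The change was above 0 for 53.0% of the genes, and its median was 0.03. Of the genes tested, 1453 were well above background on all 3 arrays in the R-SDS group alone and 1954 in the naive group alone. Such a gene had to differ, so each list summed up below, apart from the cell markers, says how many of its members passed in that way.

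The genes that stood highest after R-SDS with a known link to stress hormones were Tsc22d3 and Ddit4. Tsc22d3, which encodes the anti-inflammatory glucocorticoid-induced protein GILZ, had levels of 5.59, 6.01 and 5.67 after R-SDS, against 4.01, 4.29 and 3.65 in naive microglia. The groups did not overlap, and the change was 1.69 ± 0.41 (log2, SE; adjusted p = 0.542), with 1.79 within slide 1 and 1.70 within slide 2. Ddit4, an inhibitor of the growth kinase mTORC1 that glucocorticoids and cell stress induce, had 6.52, 6.45 and 6.60 after R-SDS, against 4.63, 3.51 and 4.09 in naive microglia. Its R-SDS arrays lay close together and well above the naive ones, at a change of 2.32 ± 0.64 (adjusted p = 0.750). Fkbp5, a co-chaperone that lowers the receptor's affinity for hormone, had 2.48, 2.89 and 3.77 after R-SDS, against 1.94, 2.42 and 2.34 in naive microglia. These groups do not overlap either, though R-SDS replicate 1 and naive replicate 2 are only just apart, and the change was 1.02 ± 0.43. Per1, a clock gene with a glucocorticoid response, had 1.31, 2.48 and 3.81 after R-SDS, against 0.42, 1.65 and 1.94 in naive microglia. Its groups overlap, but within each slide R-SDS was higher, by 1.47 and 2.01, and the change was 1.54 ± 0.59.

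**Figure D1:**
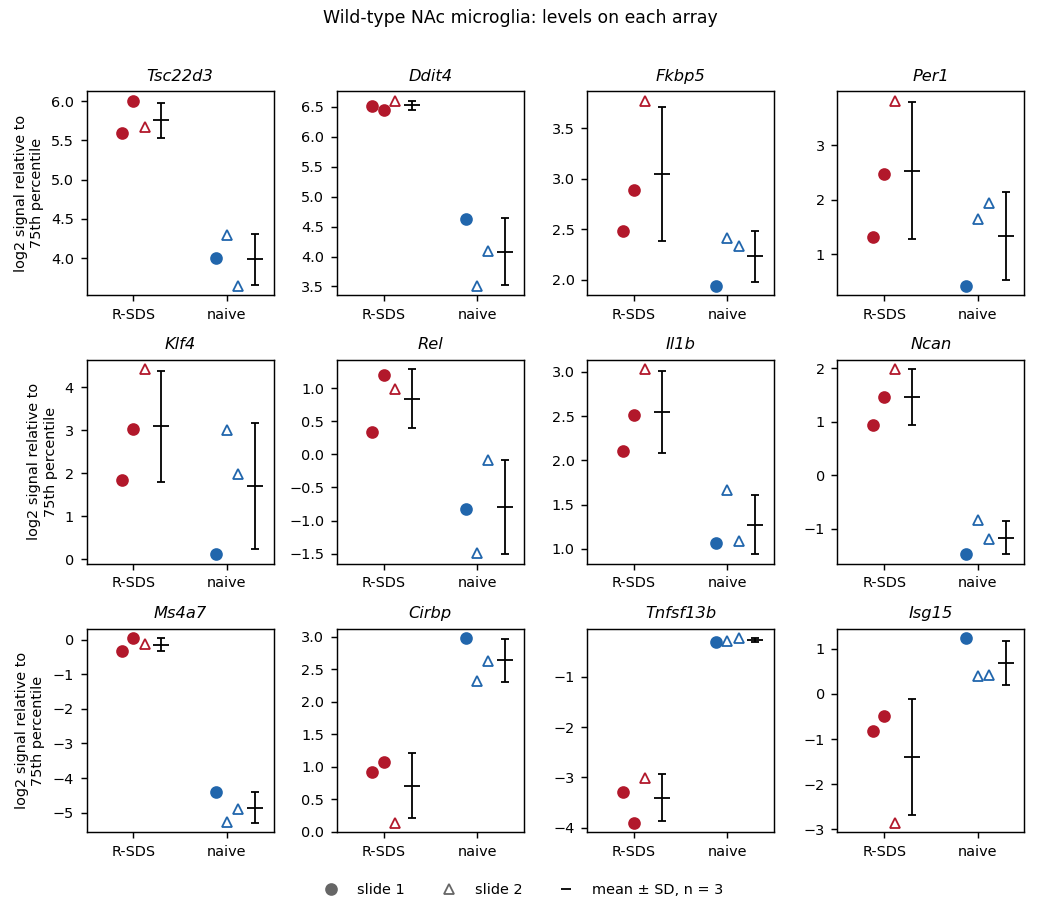
Levels of 12 genes on the 6 WT NAc arrays (log2, array 75th percentile at 0, each panel with its own y axis): R-SDS at the left and naive at the right, circles for slide 1, triangles for slide 2, and bars for the mean ± SD of 3 arrays. Tsc22d3, Ddit4, Fkbp5, Rel, Il1b, Ncan and Ms4a7 stood higher in R-SDS with no overlap, Cirbp, Tnfsf13b and Isg15 stood lower with no overlap, and Per1 and Klf4 overlap between groups but not within a slide.

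Of the 26 glucocorticoid receptor targets listed, 22 were tested, 1 of them above background throughout in a single group. The change was above 0 for 15 and below 0 for 7, with a median of 0.50, against 0.03 over all genes. Unadjusted p was under 0.05 for 5 higher members and 1 lower member, against 2.37% and 2.27% of all genes. Groups did not overlap for 3 (13.6%), all higher, against 4.95% of all genes, and for 2 (9.09%) with median centring. The metal-binding protein gene Mt1 was the other higher member, with 2.99, 3.68 and 3.39 after R-SDS, against 1.13, 2.62 and 3.21 in naive microglia, and its change of 1.22 ± 0.54 was 2.21 within slide 1 and 0.48 within slide 2. The lower member was Plekhf1, an endosomal adaptor, at -1.07 ± 0.48, well above background on 1 of 3 R-SDS arrays and on 3 of 3 naive arrays. Sgk1, a kinase of ion transport and cell survival, stood at 0.46 ± 0.28, with overlap. The phosphatase gene Dusp1 stood at 1.01 ± 0.55, Txnip, an inhibitor of thioredoxin, at -0.34 ± 0.72, and Fam107a, an actin-binding stress gene, at 0.07 ± 0.38 on its brightest probe. Its other probe, also well above background on all 6 arrays, differed by 1.60 without the block, and the mean of both probes gave 0.89. Dusp1 was 0.53 without naive replicate 3, and for Mt1 a second probe differed by 0.12. Klf9 was well above background on 1 of the 6 arrays, Pdk4 on 3, and Cd163 and Il1r2 on 0, so these 4 were not tested. The list's median was 0.28 without naive replicate 2, 0.11 within slide 1 and 0.68 within slide 2. The list was assembled from genes known as targets in several tissues and not from this experiment's cells.

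The promoters of 6 targets are shown because they separate the members by the receptor's palindrome in the window next to the start. Each is the RefSeq window of assembly GRCm38.p6 from 250 bases before to 50 bases after the start, 300 bases, 5′ to 3′ on the gene's strand, with matches to either motif in capitals. The receptor's palindrome was searched as GNACA, then any 3 bases, then TGTNC (N is any base), which is its own reverse complement, and the E-box of clock and bHLH factors as CACGTG, likewise. On the + strand lie the windows of Mt1 (chr8:94178839-94179138, palindrome 94 bases before the start), Sgk1 (chr10:21993640-21993939, palindrome 188 bases before and, nearer its 5′ end, an E-box), Txnip (chr3:96557707-96558006, palindrome 172 bases before) and Per1 (chr11:69098699-69098998, E-box 166 bases before and no palindrome). On the - strand lie those of Fam107a (chr14:8309730-8310029, palindrome 118 bases before) and Ddit4 (chr10:59951721-59952020, neither motif).
Mt1: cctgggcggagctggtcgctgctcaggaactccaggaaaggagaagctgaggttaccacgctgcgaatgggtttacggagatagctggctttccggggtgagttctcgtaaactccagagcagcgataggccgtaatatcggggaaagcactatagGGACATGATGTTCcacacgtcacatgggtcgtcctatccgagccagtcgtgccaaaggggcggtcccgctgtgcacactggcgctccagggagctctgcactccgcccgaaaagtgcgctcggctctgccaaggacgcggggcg
Sgk1: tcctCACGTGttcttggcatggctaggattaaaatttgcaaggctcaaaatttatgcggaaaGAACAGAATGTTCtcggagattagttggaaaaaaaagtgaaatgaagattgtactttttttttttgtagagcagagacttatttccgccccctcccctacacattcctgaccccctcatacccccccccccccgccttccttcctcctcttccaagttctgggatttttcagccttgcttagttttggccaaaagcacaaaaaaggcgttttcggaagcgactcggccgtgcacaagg
Fam107a: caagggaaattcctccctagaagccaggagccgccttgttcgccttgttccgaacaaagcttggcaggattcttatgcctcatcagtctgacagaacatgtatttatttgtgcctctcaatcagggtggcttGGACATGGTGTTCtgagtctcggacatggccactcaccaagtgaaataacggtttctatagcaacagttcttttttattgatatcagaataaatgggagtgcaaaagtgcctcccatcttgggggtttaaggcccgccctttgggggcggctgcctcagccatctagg
Txnip: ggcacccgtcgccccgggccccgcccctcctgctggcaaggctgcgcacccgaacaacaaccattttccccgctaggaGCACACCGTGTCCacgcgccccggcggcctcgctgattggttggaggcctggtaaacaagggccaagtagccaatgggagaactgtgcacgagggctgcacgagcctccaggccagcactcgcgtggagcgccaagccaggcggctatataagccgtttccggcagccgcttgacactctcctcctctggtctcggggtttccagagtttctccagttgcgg
Per1: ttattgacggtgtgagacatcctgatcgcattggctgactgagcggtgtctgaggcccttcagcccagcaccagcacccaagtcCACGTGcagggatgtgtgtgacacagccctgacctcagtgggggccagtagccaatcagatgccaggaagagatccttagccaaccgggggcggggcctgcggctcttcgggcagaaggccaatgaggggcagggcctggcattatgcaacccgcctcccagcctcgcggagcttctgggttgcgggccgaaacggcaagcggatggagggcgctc
Ddit4: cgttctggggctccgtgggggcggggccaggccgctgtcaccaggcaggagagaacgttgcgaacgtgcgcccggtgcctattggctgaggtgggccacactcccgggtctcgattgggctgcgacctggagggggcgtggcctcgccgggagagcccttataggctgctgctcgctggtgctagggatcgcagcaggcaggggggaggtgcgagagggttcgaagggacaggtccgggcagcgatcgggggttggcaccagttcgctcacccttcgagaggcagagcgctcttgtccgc

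The palindrome was in the window of 4 of the 23 list members that have one in the table (17.4%), against 0.475% of all 32851 RefSeq windows, where some genes have several windows. The E-box was in 5 of the 23 (21.7%), against 7.15% of all windows. A match is a run of letters and not a measured binding site. The 4 members with the palindrome had changes of 1.22 (Mt1), 0.46 (Sgk1), 0.07 (Fam107a, or 0.89 over both probes) and -0.34 (Txnip). The windows of Tsc22d3, Ddit4, Fkbp5 and Per1, at 1.69, 2.32, 1.02 and 1.54, do not hold these letters, which says nothing of elements farther away.

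Among the AP-1 factors, which pair as dimers of Fos and Jun type proteins, 10 of 11 were tested, 1 through a single group, and 9 stood above 0 with a median change of 1.37. Fos had levels of 4.06, 5.39 and 5.06 after R-SDS, against 3.66, 4.20 and 2.42 in naive microglia. R-SDS replicate 1 lies below naive replicate 2, and the change was 1.38 ± 0.61. Fosb had 6.15, 7.47 and 8.28 after R-SDS, against 5.91, 6.61 and 5.19 in naive microglia, with a change of 1.62 ± 0.73 and the same kind of overlap. Jund stood at 1.00 ± 0.45. Fos, Fosb and Jund were the members with an unadjusted p under 0.05, all higher, against 2.37% of all genes. Maff, a small partner that lacks an activation domain, had -0.00, 0.29 and 0.66 after R-SDS, against -1.64, -0.94 and -0.35 in naive microglia, without overlap and at 2.01 ± 1.02. The list's median was 0.65 within slide 1, where naive replicate 1 is the lone naive array, and 1.65 within slide 2.

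Of 25 other immediate early genes 20 were tested, 1 through a single group, and 17 stood above 0, with a median change of 0.86 that was 0.53 without naive replicate 3. Klf4, a zinc-finger factor of myeloid activation, had 1.84, 3.02 and 4.41 after R-SDS, against 0.11, 2.99 and 1.99 in naive microglia. Levels of both groups were higher on slide 2, and within slides R-SDS was higher by 2.31 and 1.92, at a change of 2.04 ± 0.51 with the slide as a block (adjusted p = 0.604) and 1.39 without it. Groups did not overlap for 3 members (15%), all higher, against 4.95% of all genes. They were the orphan nuclear receptor gene Nr4a3, the antiproliferative gene Btg2 and Csrnp1. Nr4a3 had -0.68, -0.42 and -0.34 after R-SDS, against -5.35, -3.28 and -1.99 in naive microglia, of which 2 of 3 arrays were well above background, and stood at 3.81 ± 1.64. Btg2 stood at 0.84 ± 0.44 and Csrnp1 at 2.03 ± 1.62. Within slides Csrnp1 was higher by 2.03 and 1.82, and its SE also takes in the spread of the other groups' arrays. Egr2 and Egr3, zinc-finger factors, stood at 1.30 ± 0.62 and 2.24 ± 1.20, and Nr4a1 at 1.24 ± 0.63, all with overlap.

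**Figure D2:**
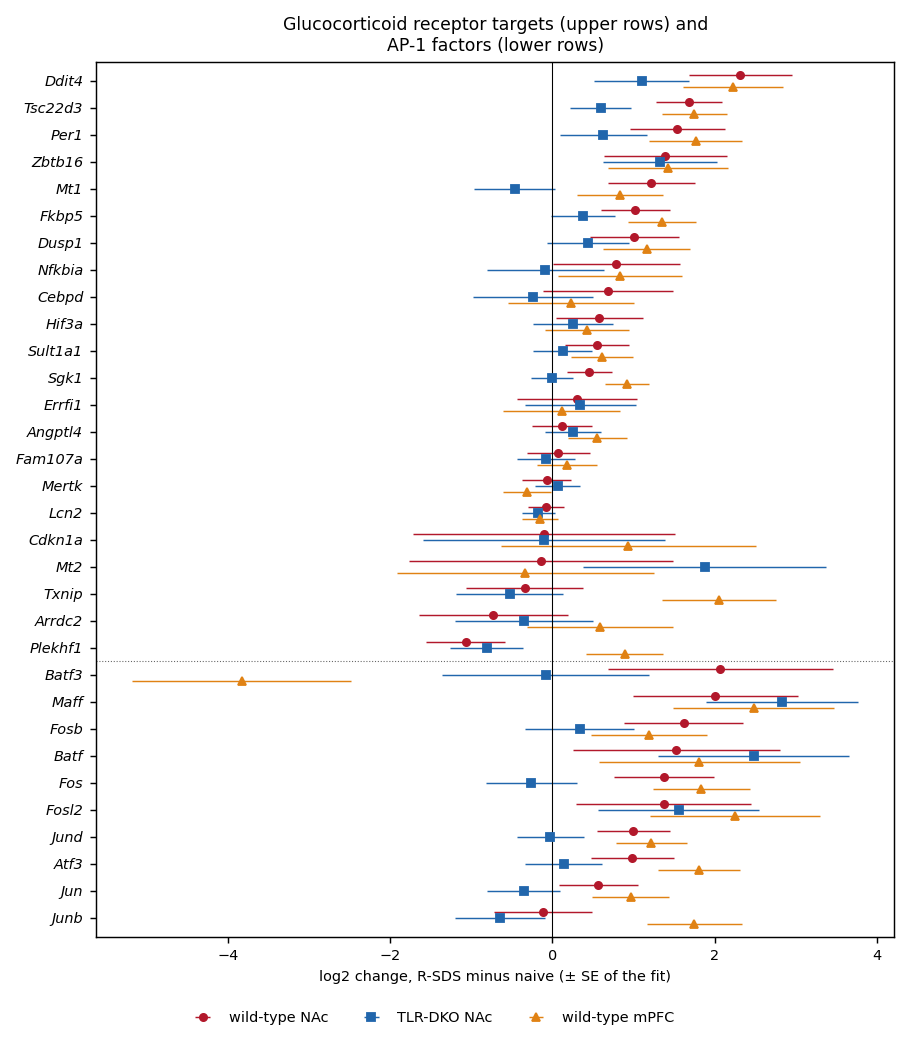
Change after R-SDS (log2, R-SDS minus naive, bars ± SE of the fit) for the 22 tested glucocorticoid receptor targets above the dotted line and the 10 tested AP-1 factors below it, in WT NAc (circles), TLR-DKO NAc (squares) and WT mPFC (triangles). Ddit4, Tsc22d3, Per1 and Fkbp5 lie to the right of 0 in all 3 comparisons, while Fos and Mt1 lie to the right of 0 in WT NAc and to the left in TLR-DKO NAc.

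The NF-kappaB list holds subunits and genes that switch the pathway off. Of its members 20 of 21 were tested, 0 through a single group, and 16 stood above 0 with a median change of 0.65. Unadjusted p was under 0.05 for 4 members, all higher, against 2.37% of all genes. Groups did not overlap for 1 member (5%), also higher, against 4.95% of all genes. Rel, which encodes the c-Rel subunit, had 0.34, 1.20 and 0.99 after R-SDS, against -0.83, -1.50 and -0.08 in naive microglia. Its groups did not overlap, and the change was 1.77 ± 0.66. Nfkbid, an atypical inhibitor, stood at 1.39 ± 0.56, the surface protein gene Cd83 at 1.38 ± 0.60 and Zc3h12a, whose RNase product cuts inflammatory transcripts, at 2.05 ± 0.97. These 3 overlapped between groups by at least 1 array.

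Of 24 cytokines and TNF superfamily ligands 17 were tested, 5 of them above background throughout in a single group, and 13 stood above 0 with a median change of 0.69, which was 1.06 without naive replicate 1 and -0.27 within slide 1. Il1b had 2.10, 2.51 and 3.03 after R-SDS, against 1.07, 1.66 and 1.09 in naive microglia. All R-SDS arrays lay above all naive ones, and the fitted change was 1.72 ± 1.00. Il6 had -0.64, 0.52 and 1.21 after R-SDS, against -4.06, -1.38 and -1.54 in naive microglia, where 2 of 3 arrays were well above background, and stood at 3.09 ± 1.33. Il1a and Tnf stood at 1.25 ± 0.74 and 1.40 ± 0.89, with overlap. Among 13 of 16 chemokines tested, 2 through a single group, 9 stood above 0 with a median of 0.60, which was 0.17 without naive replicate 1. Ccl3, which draws monocytes, had 3.90, 4.34 and 4.56 after R-SDS, against 2.58, 3.20 and 3.92 in naive microglia. Naive replicate 3 reaches R-SDS replicate 1, and the change was 1.26 ± 0.43 (adjusted p = 0.959). Ccl4 had no overlap at 0.95 ± 0.59, and Ccl7 had none at 3.76 ± 1.60, with 2 of 3 naive arrays well above background. Cx3cl1, the ligand of Cx3cr1, stood at -0.96 ± 0.45, or -0.33 without R-SDS replicate 3.

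In the opposite direction stood Tnfsf13b, which encodes the B cell survival factor BAFF. It had -3.29, -3.91 and -3.01 after R-SDS, against -0.30, -0.28 and -0.23 in naive microglia. The naive arrays lay close together and far above the R-SDS ones, of which 2 of 3 were well above background, and the change was -2.91 ± 0.66 (adjusted p = 0.542) or -1.49 with normexp background correction, which compresses dim signals. Ifnb1, which encodes interferon beta, had -2.40, -5.75 and -3.89 after R-SDS, against -2.06, -0.23 and 0.22 in naive microglia. It was well above background on 1 of 3 R-SDS arrays and stood at -2.80 ± 1.20. Isg15, an interferon-induced ubiquitin-like protein, had -0.82, -0.49 and -2.86 after R-SDS, against 1.24, 0.40 and 0.41 in naive microglia, without overlap and at -2.62 ± 1.13. A second Isg15 probe, well above background on 2 arrays of each group, differed by -0.87 without the block. The interferon list as a whole did not stand lower: 13 of 22 members were tested, 4 through a single group, 9 were above 0, the median change was 0.07, and Usp18, which curbs interferon receptor signalling, stood higher without overlap at 0.89 ± 0.57.

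**Figure D3:**
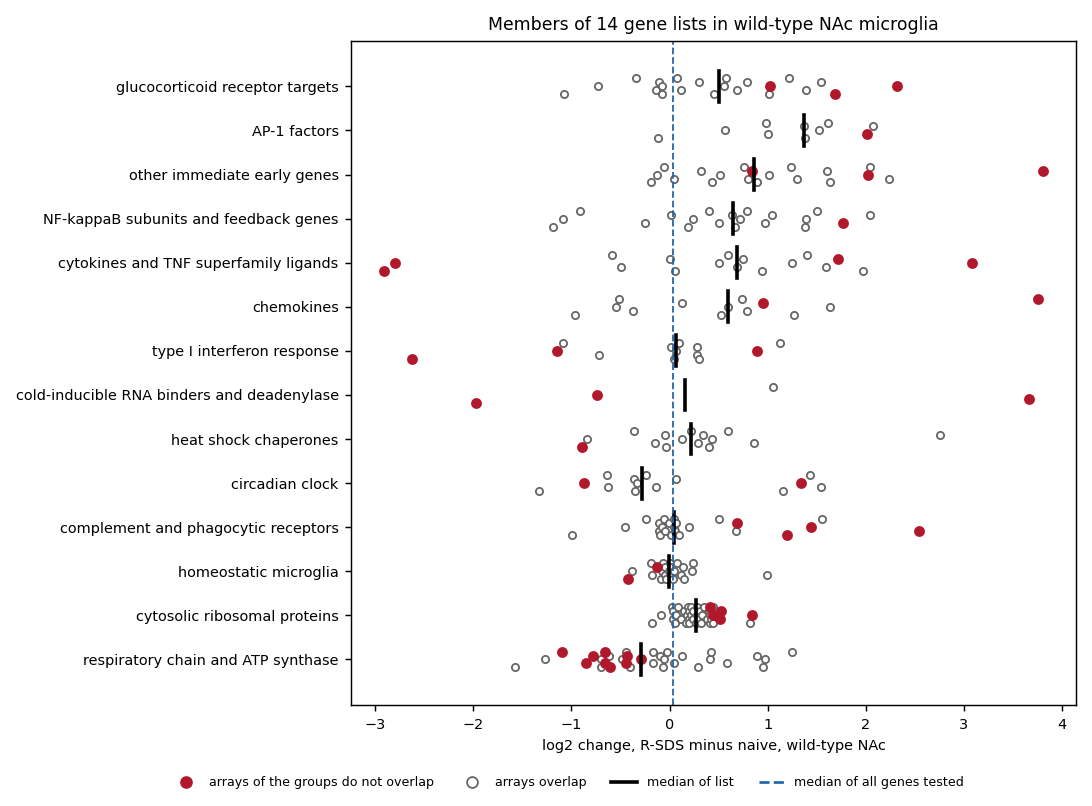
Change in WT NAc (log2, R-SDS minus naive) of each tested member of 14 gene lists, 1 point a gene, filled where the 3 R-SDS and 3 naive arrays do not overlap, with the list's median as a black bar and the median of all genes tested (0.03) as a dashed line. AP-1 factors (1.37) and other immediate early genes (0.86) have their medians farthest to the right, homeostatic microglial genes lie close around 0, and the respiratory chain has its median at -0.29.

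Cirbp, the cold-inducible RNA-binding protein, had the smallest p of the named genes that stood lower without overlap. It had 0.92, 1.07 and 0.14 after R-SDS, against 2.98, 2.32 and 2.62 in naive microglia. The groups lie more than 1 log2 unit apart, and the change was -1.97 ± 0.39 (adjusted p = 0.516), with -1.99 within slide 1 and -2.33 within slide 2. Its relative Rbm3, which also rises when cells cool, had 3.53, 4.30 and 3.54 after R-SDS, against 4.86, 4.89 and 4.38 in naive microglia on its brightest probe. That probe separates the groups by a small gap (-0.74 ± 0.55), while the mean difference without the block was 0.10 and 0.09 on 2 other Rbm3 probes. Noct, the circadian gene of nocturnin, had -2.47, -2.48 and 0.20 after R-SDS, against -4.81, -5.82 and -2.70 in naive microglia, of which 1 of 3 arrays was well above background. It stood at 3.67 ± 1.05 (adjusted p = 0.793). The clock genes, of which 14 of 21 were tested and 1 through a single group, had 5 members above 0 and a median change of -0.28, which was 0.0041 without naive replicate 1. Rora, a nuclear receptor that drives Arntl, stood at 1.43 ± 0.57, the repressor gene Bhlhe41 at 1.34 ± 0.94 without overlap, and Tef, a PAR bZIP factor, at -0.88 ± 0.68 without overlap. Bhlhe41 was 0.63 without naive replicate 2, and its other probe differed by 0.50.

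Genes of the FoxO and mTORC1 pathways, among which Ddit4 acts, had 11 of 18 tested members above 0, 3 of them passing through a single group, and a median change of 0.53, which was 0.33 without naive replicate 1 and 0.31 without R-SDS replicate 2. Groups did not overlap for 4 higher members (22.2%), against 4.95% of all genes, or for 2 (11.1%) with median centring. These were Ddit4, Rptor, the scaffold of mTORC1, at 1.16 ± 0.55, Sesn3, a stress-induced inhibitor of mTORC1, at 0.74 ± 1.19, and the pseudokinase gene Trib1 at 0.85 ± 0.64. Tsc2, whose protein holds mTORC1 off, had -1.87, -4.84 and -1.27 after R-SDS, against -0.97, 0.17 and -0.22 in naive microglia, and stood lower without overlap at -2.30. Sesn1 stood at -1.01 ± 0.44. Pik3r1, the regulatory subunit of PI3 kinase, was not on this list and is named here after its values were seen. It had 1.24, 1.20 and 2.13 after R-SDS, against -0.30, 0.50 and 0.96 in naive microglia, with no overlap and 1.37 ± 0.40 (adjusted p = 0.843).

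Most subunits of the respiratory chain and ATP synthase had changes below 0. All 33 listed genes were tested, each well above background on all 6 arrays, and 23 were below 0 with a median change of -0.29, against 0.03 over all genes. All R-SDS arrays lay below all naive arrays for 9 of the 33 (27.3%), against 4.00% of all genes, and 0 of the 33 lay above. The mean level of the 33 genes was 2.56, 2.34 and 2.39 after R-SDS, against 2.39, 3.00 and 2.71 in naive microglia. By this mean the groups overlap, since naive replicate 1 lies below R-SDS replicate 1. Ndufb3, a subunit of complex I, had 2.64, 2.01 and 2.24 after R-SDS, against 2.88, 3.19 and 2.97 in naive microglia, at -0.66 ± 0.28. Ndufa4, a subunit long assigned to complex I and now to complex IV, had 2.99, 3.35 and 3.39 after R-SDS, against 3.90, 4.31 and 3.96 in naive microglia, at -0.78 ± 0.40. Uqcrc1, a core protein of complex III, had 1.41, 0.78 and 0.42 after R-SDS, against 2.14, 1.89 and 1.49 in naive microglia, at -1.09 ± 0.74. The other 6 were Ndufa9, Ndufb5, Sdhb, Uqcrfs1, Atp5b and Atp5c1, with changes of -0.43, -0.85, -0.66, -0.44, -0.29 and -0.61, of which that of Atp5c1 was -0.12 without R-SDS replicate 3. Unadjusted p was under 0.05 for 2 higher members and 1 lower member, against 2.37% and 2.27% of all genes. Against the direction of the list, Sdha, the flavoprotein of complex II, stood at 1.25 ± 0.47 and Atp5d at 0.97 ± 0.37, both with overlap. Leaving out R-SDS replicate 3 gave a list median of -0.12, leaving out naive replicate 2 gave -0.18 and naive replicate 1 gave -0.45, and it was -0.19 and -0.55 within slides 1 and 2. With other scalings 7 to 9 members had no overlap, and the median ran from -0.38 to -0.24.

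Genes of cytosolic ribosomal proteins stood higher by small amounts. Of 44 listed, 42 were tested, each well above background on all 6 arrays, and 40 were above 0, or 34 with quantile normalization, with a median change of 0.27. Groups did not overlap for 5 (11.9%), against 4.95% of all genes, and with other scalings for 3 (7.14%) to 7 (16.7%). The 5 were all higher: Rpl15, Rps16, Rps19, Rps23 and Rps27, with changes of 0.84, 0.45, 0.52, 0.51 and 0.41. Rpl15 had 3.96, 4.86 and 3.94 after R-SDS, against 3.00, 3.60 and 3.30 in naive microglia. The mean level of the 42 genes was 4.80, 5.15 and 5.49 after R-SDS, against 4.80, 5.39 and 4.61 in naive microglia, so arrays of both groups interleave. The median fell to 0.08 when naive replicate 3 was left out and to 0.11 when R-SDS replicate 3 was, and it was 0.42 without either R-SDS replicate 1 or naive replicate 2. These genes have many near-identical processed pseudogenes, and a probe may read several copies. Most of their other probes also differed by more than 0 without the block. Other probes of Rpl14 (-1.96) and Rpl13a (-1.19 and -1.29), well above background on all 6 arrays, went the other way. Those of Rpl23 differed by -0.50 and 0.12.

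**Figure D4:**
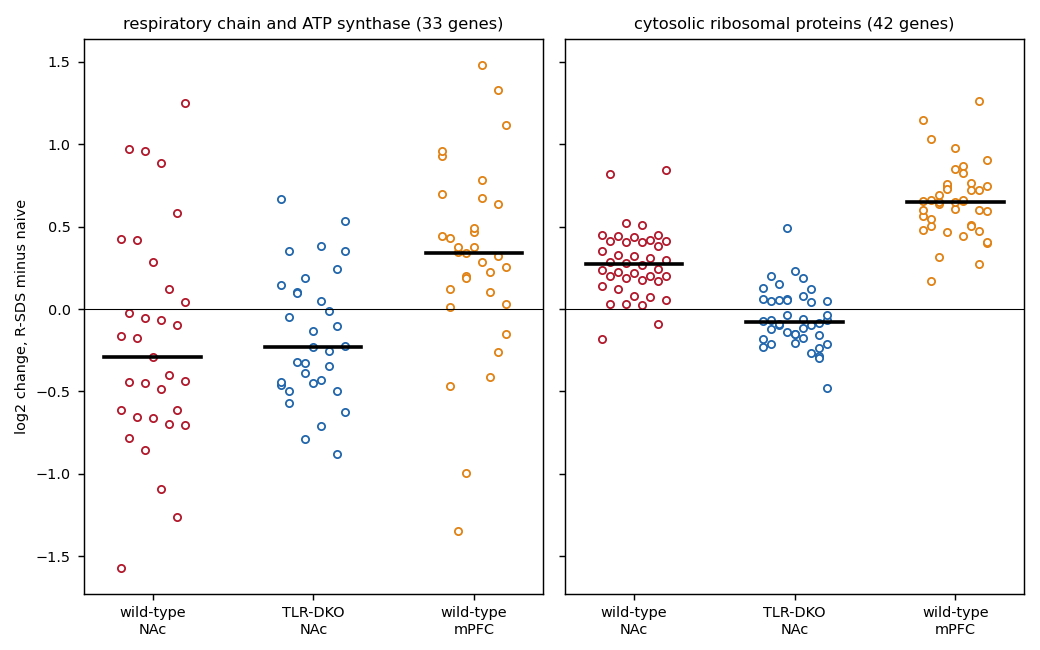
Change after R-SDS (log2, R-SDS minus naive) of each subunit gene of the respiratory chain and ATP synthase (left, 33 genes) and of each cytosolic ribosomal protein gene (right, 42 genes) in WT NAc, TLR-DKO NAc and WT mPFC, 1 point a gene, with bars at the medians. The respiratory medians were -0.29, -0.23 and 0.34, and the ribosomal medians 0.27, -0.08 and 0.65, in that order of groups.

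Genes that define microglia stood about level between the groups. All 24 homeostatic genes were tested, 0 through a single group, 12 stood above 0, and the median change was -0.00090. With quantile normalization 5 stood above 0 (median -0.11), and with median centring 16 did (median 0.06). Groups did not overlap for 2 members (8.33%), both lower, against 4.00% of all genes, and other scalings gave 0 to 2 such members. Cx3cr1, the fractalkine receptor, had 8.04, 8.30 and 8.81 after R-SDS, against 8.37, 8.74 and 8.15 in naive microglia, at 0.08 ± 0.33. P2ry12, the ADP receptor that guides microglial processes, had 5.05, 5.05 and 4.71 after R-SDS, against 5.29, 4.96 and 4.81 in naive microglia, at -0.17 ± 0.30. Both genes overlap throughout. Small shifts without overlap were seen for Sall1, the microglial lineage factor, at -0.43 ± 0.27 and for P2ry13 at -0.12 ± 0.26, and Gpr84, a receptor for medium-chain fatty acids that inflammation induces, stood at 0.99 ± 0.46. Because these are sorted bulk samples, fewer cells of a kind and less RNA per cell cannot be told apart.

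Toll-like receptors and their adaptors had 16 of 21 tested members above 0, 3 of them through a single group, and a median change of 0.28, which was 0.11 without naive replicate 2. Unadjusted p was under 0.05 for 0 members, against 4.64% of all genes. Groups did not overlap for 2 members (9.52%), both higher, against 4.95% of all genes, or for 1 (4.76%) with median centring. Tlr2 stood at -0.38 ± 0.40 and Tlr4 at -0.15 ± 0.56, both with overlap, while Cd14, the co-receptor of Tlr4, and Tlr13, a sensor of bacterial RNA, stood at 0.45 ± 0.43 and 0.46 ± 0.39 without overlap. Without naive replicate 1 these were 0.02 and 0.21, and Cd14 stood at 1.02 within slide 1 and 0.09 within slide 2. Complement and phagocytic receptors had 14 of 24 tested members above 0, 2 through a single group, and a median of 0.04. With quantile normalization 8 members stood above 0, and the median was -0.06. In that list 4 members stood higher without overlap (16.7%, against 4.95% of all genes): C5ar1, C4b, Cfp and Fcgr4. C5ar1, the receptor of the complement fragment C5a, had 2.37, 2.27 and 3.35 after R-SDS, against 1.51, 1.34 and 0.86 in naive microglia. Its naive arrays all lie under the lowest R-SDS array, and the change was 1.45 ± 0.58. C4b stood at 2.54 ± 1.25, with 1 of 3 naive arrays well above background, and at 1.32 without R-SDS replicate 3. Cfp, which stabilises the alternative convertase, stood at 0.69 ± 0.39 and the IgG receptor gene Fcgr4 at 1.20 ± 0.86.

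The smallest p of the named genes that stood higher without overlap belonged to Ncan, which encodes neurocan, a chondroitin sulphate proteoglycan of the brain's extracellular matrix. It had 0.94, 1.46 and 1.98 after R-SDS, against -1.47, -0.85 and -1.20 in naive microglia. The groups lie more than 1 log2 unit apart at their nearest arrays, and the change was 2.75 ± 0.53 (adjusted p = 0.516). Ncan is made by astrocytes and neurons and is among the 12 astrocyte markers listed here. The mean level of those markers was 0.35, -1.35 and -1.46 after R-SDS, against -1.77, -1.30 and -2.07 in naive microglia, so R-SDS replicate 1 stands apart. Without that array the change of Ncan was 2.94. Ncan was highest on R-SDS replicate 3, and so were the oligodendrocyte precursor markers. Their means were -1.96, -3.22 and -1.12 after R-SDS, against -3.58, -3.44 and -3.83 in naive microglia. The part of RNA from astrocytes or other cells in the change of Ncan was not tested.

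Tsc22d3, Ddit4, Cirbp, Tnfsf13b and Ncan were among the 30 named genes with the smallest p, no overlap and the same direction in both slides. Several of the others had a dim side, and for those the fold is a bound, computed on each dim array against the gene's own signal or the array's dimmest signal that was well above background, whichever is higher. Ms4a7, a membrane protein of macrophages, had -0.33, 0.04 and -0.13 after R-SDS, against -4.39, -5.28 and -4.91 in naive microglia, where 0 arrays were well above background. Its level after R-SDS was at least 11.2-fold higher (fitted change 4.07 ± 1.14, adjusted p = 0.758). Tpbg, an inhibitor of Wnt signalling at the membrane, was at least 5.92-fold higher (4.20 ± 0.98, adjusted p = 0.542) and Kbtbd3 at least 12.4-fold higher (4.21 ± 1.20, adjusted p = 0.793). Acbd3, a Golgi scaffold, was bright on every array, with 2.59, 3.34 and 3.99 after R-SDS, against 0.95, 1.79 and 2.34 in naive microglia, at 2.03 ± 0.48 (adjusted p = 0.542). Marcksl1, an actin-regulating substrate of protein kinase C, stood at 3.35 ± 0.90, and Hibadh, a mitochondrial enzyme of valine breakdown, at 2.69 ± 0.75. The other members on the higher side had fitted changes of 2.16 (Fbxo40), 3.59 (Rusc2), 3.76 (Vkorc1l1), 4.02 (Dusp18), 4.98 (Vmn1r174) and 5.21 (6330403K07Rik), and of these Dusp18 and Vmn1r174 were well above background on 0 naive arrays and at least 8.80-fold and 6.44-fold higher. A second Dusp18 probe, well above background on 2 arrays of each group, differed by 1.24 without the block.

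On the lower side, Timm23, the channel of the inner mitochondrial import machinery, had 1.25, 1.38 and -1.34 after R-SDS, against 2.91, 1.71 and 1.49 in naive microglia, at -2.05 ± 0.46 (adjusted p = 0.542). Stt3a, a catalytic subunit of the N-glycosylation complex, had 0.66, -1.30 and -2.51 after R-SDS, against 1.36, 1.70 and 1.01 in naive microglia, at -2.69 ± 0.62 (adjusted p = 0.542). Both were lowest on R-SDS replicate 3, and without it their changes were -1.34 and -1.99. Tmem219, a receptor of the growth-factor binding protein Igfbp3, stood at -2.57 ± 0.60, Tmem144 at -2.10 ± 0.51, and Cln6, a lysosomal protein factor of the endoplasmic reticulum, at -2.77 ± 0.76. Igf2r, which sorts lysosomal enzymes, was well above background on 0 of 3 R-SDS arrays and was at least 3.53-fold lower (-2.48 ± 0.65, adjusted p = 0.708). Hdhd5 was at least 3.37-fold lower (-3.82 ± 0.95, adjusted p = 0.596). The other members on the lower side had fitted changes of -1.88 (Pisd-ps1), -2.17 (Sft2d3), -2.62 (Tnfrsf18), -2.76 (Glmn), -2.98 (Mnat1) and -4.58 (Ninl), and Tnfrsf18, Glmn and Ninl were well above background on 0 R-SDS arrays and at least 3.44-fold, 3.28-fold and 5.26-fold lower. A second Ninl probe, well above background on 1 R-SDS and 2 naive arrays, differed by -0.59 without the block. A second Glmn probe, well above background on 1 R-SDS and 0 naive arrays, differed by -0.41. Adm, which encodes the vasodilator peptide adrenomedullin and is on the hypoxia list, had -2.04, -5.92 and -5.56 after R-SDS, against -1.23, 1.83 and 0.18 in naive microglia, at -4.32 ± 1.36 (adjusted p = 0.875).

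Markers of other cells were followed array by array. The 12 microglial markers had means of 6.16, 6.13 and 6.49 after R-SDS, against 6.31, 6.52 and 6.35 in naive samples. Oligodendrocyte markers had means from -0.21 to 0.79 after R-SDS, against 0.03 to 0.58 in naive samples, with 10 of 11 well above background on at least 1 array. Mbp, the myelin basic protein gene, had -0.03, 0.51 and -0.08 after R-SDS, against 2.17, 1.12 and 2.37 in naive samples, without overlap and at -1.72 ± 0.69 on its brightest probe. Other Mbp probes differed by -0.22, well above background on all 6 arrays, and by 0.29, and the 10 oligodendrocyte markers tested had a median change of -0.08 with 4 above 0. Striatal neuron markers had -0.64, -1.87 and -2.12 after R-SDS, against -1.67, -1.80 and -1.57 in naive samples, so R-SDS replicate 1 is again the highest. Perivascular macrophage markers, among which Ms4a7 is counted, had -1.05, -3.55 and -2.67 after R-SDS, against -1.69, -3.13 and -4.47 in naive samples. In that list 11 of 12 were well above background on at least 1 array, 1 was on all 6, and Cd163 was on 0. Red blood cell markers had -1.52, -0.61 and 0.92 after R-SDS, against -1.53, -1.61 and -1.84 in naive samples, and R-SDS replicate 3 held the most, with Hba-a2 at 1.50. Oligodendrocyte precursor markers had -1.96, -3.22 and -1.12 after R-SDS, against -3.58, -3.44 and -3.83 in naive samples. Endothelial and mural markers had -1.52, -1.74 and -1.54, against -2.22, -1.77 and -2.52. The means of both lists, and narrowly those of the red blood cell markers, did not overlap between groups. Only 2 of 6 precursor and 4 of 12 endothelial and mural markers were well above background on all 6 arrays. The red blood cell mean rests on 2 genes. Many of these levels lie near background, since the dimmest signal well above it ran from -3.98 to -3.30 on the arrays. Of those tested, 2 of 3 precursor and 5 of 5 endothelial and mural markers stood above 0. Monocyte markers ran from -1.75 to -1.62 after R-SDS, against -1.73 to -1.45 in naive samples. The neutrophil markers S100a8, S100a9 and Retnlg were well above background on 0 arrays. The part of these cells in the results above was not tested.

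**Figure D5:**
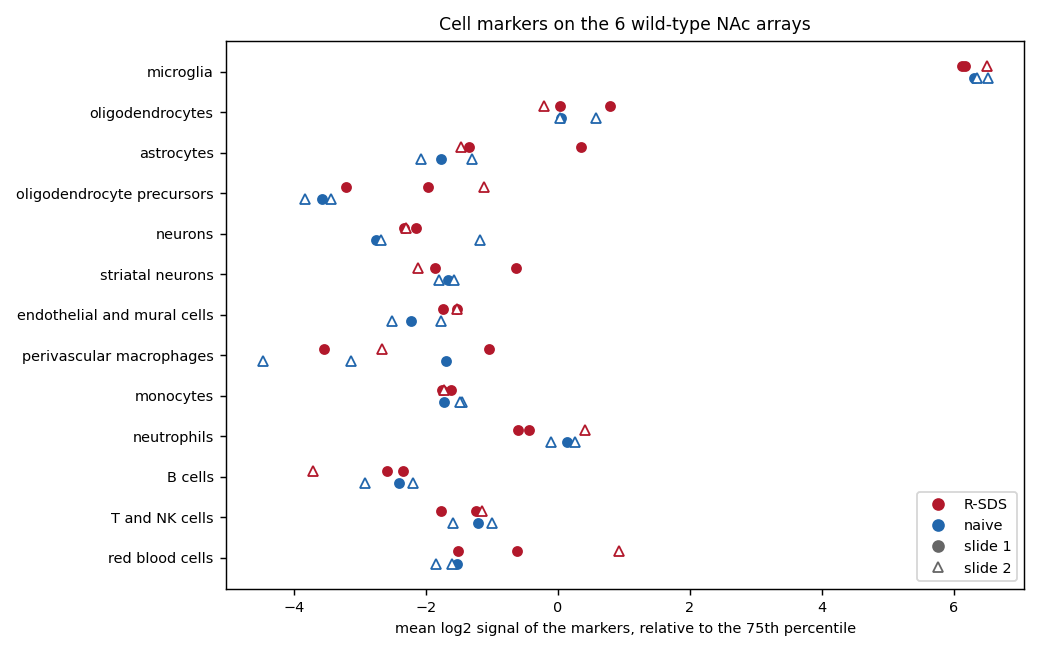
Mean level of the markers of 13 cell types on each of the 6 WT NAc arrays (log2 signal relative to the 75th percentile, markers well above background on at least 1 array), R-SDS in red above naive in blue, circles for slide 1 and triangles for slide 2. Microglial markers lie from 6.13 to 6.52 on all arrays, while astrocyte and striatal markers are highest on R-SDS replicate 1 and red blood cell markers on R-SDS replicate 3.

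The values of many named genes depend on 1 array. With each array left out in turn and the probe kept, a check added after seeing the data, the change of 46 of the 114 tested genes that were followed by name became more than 1.5 times smaller, or turned sign, in at least 1 of the 6 cases. R-SDS replicate 3 was the array for immune genes such as C5ar1 (0.93 without it) and Fcgr4 (0.69), and for Sesn1 (-0.44), Trib1 (0.55), Rbm3 (-0.26), Tmem219 (-1.64) and Adm (-2.80). It was also the array for Ndufb5 (-0.50) and Sdhb (-0.30) of the respiratory chain and for Rps16 (0.23), Rps23 (0.27) and Rps27 (0.14) of the ribosome. Without naive replicate 1 the change was 0.58 for Mt1, 0.80 for Rora, 0.43 for Rpl15, -0.18 for Sall1, -0.32 for Tef and -1.46 for Igf2r. Without naive replicate 2 it was 0.77 for Il1a, 2.04 for Marcksl1, 2.17 for Vkorc1l1, -0.28 for Uqcrfs1 and -0.06 for P2ry13. Naive replicate 3 mattered in this way for Jund (0.60 without it) and Plekhf1 (-0.70), R-SDS replicate 2 for Nr4a1 (0.82), Tsc2 (-1.28) and Mnat1 (-1.93), and R-SDS replicate 1 for Sesn3 (0.48). Tsc22d3, Ddit4, Fkbp5, Per1, Fos, Klf4, Rel, Il1b, Cirbp, Tnfsf13b, Isg15, Ncan and Ms4a7 were among the 68 genes that did not move so far toward 0. A second Timm23 probe differed by -0.72 and a second Sdhb probe by -0.31.

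Whether the change in WT NAc differed from that in WT mPFC was tested as an interaction over 22922 genes, and 0 passed (0%), with 1062 at an unadjusted p under 0.05 (4.63%) and a lowest adjusted p of 0.489. Across the 21388 genes tested in both, the changes had a Pearson r of 0.0886 (Spearman rho 0.106), and 55.7% had the same sign. Genes are not independent replicates, and these 2 comparisons share no arrays. In NAc and mPFC, Tsc22d3 stood at 1.69 ± 0.41 and 1.75 ± 0.40, Ddit4 at 2.32 ± 0.64 and 2.23 ± 0.62, Fos at 1.38 ± 0.61 and 1.84 ± 0.60, and Rel at 1.77 ± 0.66 and 1.94 ± 0.64. Their region interactions had adjusted p of 0.987 or more, which does not show that they are equal. Cirbp stood at -1.97 ± 0.39 in NAc and 0.33 ± 0.38 in mPFC, an interaction of -2.30 ± 0.54 (adjusted p = 0.905). Ncan stood at 2.75 in NAc and 0.62 in mPFC, an interaction of 2.13 ± 0.75 (adjusted p = 0.987). Mbp stood at -1.72 and 1.15 (-2.88 ± 0.96, adjusted p = 0.950), and Txnip at -0.34 and 2.05 (-2.40 ± 1.01, adjusted p = 0.987). The smallest interaction p among named genes belonged to Msantd3, Tada3, Hilpda, Mybbp1a and H2-T10. Hilpda, a lipid droplet protein induced by hypoxia, stood at -0.53 ± 1.37 in NAc and 8.72 ± 1.33 in mPFC (-9.26 ± 1.91, adjusted p = 0.905), and Msantd3 was well above background on 0 of the 6 NAc arrays. The respiratory chain list had 10 of 33 members above 0 in NAc and 27 of 33 in mPFC, where 62.2% of all genes were above 0. The ribosomal list had 40 of 42 above 0 in NAc and 42 of 42 in mPFC.

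The change in WT NAc was set against that in TLR-DKO NAc in the same way, over 23286 genes, of which 0 passed (0%), with 806 at an unadjusted p under 0.05 (3.46%) and a lowest adjusted p of 0.361. Stressed WT mice were labelled susceptible and stressed TLR-DKO mice resilient, so genotype and that outcome cannot be told apart here. Across 21360 genes tested in both, Pearson r was 0.113 (Spearman rho 0.0963) and 51.7% had the same sign. The glucocorticoid targets had 15 of 22 members above 0 with a median of 0.50 in WT NAc and 13 of 23 with a median of 0.12 in TLR-DKO NAc, where 47.1% of all genes were above 0. AP-1 factors had medians of 1.37 and 0.14. Among genes, Tsc22d3 stood at 1.69 ± 0.41 in WT and 0.59 ± 0.37 in TLR-DKO (difference 1.09 ± 0.55), Fos at 1.38 ± 0.61 and -0.26 ± 0.56 (1.64 ± 0.82), and Mt1 at 1.22 ± 0.54 and -0.47 ± 0.50 (1.69 ± 0.73). Ccl3 stood at 1.26 ± 0.43 in WT and 0.10 ± 0.40 in TLR-DKO (1.17 ± 0.58). Tnfsf13b stood at -2.91 ± 0.66 in WT and 0.35 ± 0.60 in TLR-DKO (-3.26 ± 0.88), Ifnb1 at -2.80 and 2.97 (-5.77 ± 1.61), and Isg15 at -2.62 and 1.91 (-4.54 ± 1.52). Ncan stood at 2.75 ± 0.53 in WT and 0.37 ± 0.49 in TLR-DKO (2.37 ± 0.72), Acbd3 at 2.03 and 0.01 (2.02 ± 0.64), and Ms4a7 at 4.07 and -0.12 (4.19 ± 1.53). Other genes stood on the same side in both genotypes: Il6 at 3.09 and 3.45, Nr4a3 at 3.81 and 3.88, Rel at 1.77 and 1.60, and Tpbg at 4.20 and 3.39. The smallest interaction p among named genes belonged to Npm2, Dtd2, Glmn, A930019D19Rik and Magi1, with interactions of 4.02, -5.55, -3.97, -3.72 and -4.54. Npm2 was well above background on 1 of the 6 WT NAc arrays and was not tested there. The adjusted p was 1.00 for each of these differences apart from those of Npm2 (0.361) and Dtd2 (0.496), so no gene's response can be called dependent on the genotype.

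Averages over 2 comparisons, added after the data had been seen, gave the few genes that passed. Over both regions of wild type 2 of 22922 genes passed (0.00873%), with 1858 at an unadjusted p under 0.05 (8.11%). Klf4 rose by 2.61 ± 0.36 on the log2 scale (adjusted p = 0.0180) and Pik3r1 by 1.82 ± 0.28 (adjusted p = 0.0486), while Tsc22d3, at 1.72 ± 0.28, missed the threshold (adjusted p = 0.0686). Over both genotypes in the NAc 1 of 23286 genes passed (0.00429%), with 1158 at an unadjusted p under 0.05 (4.97%). That gene was Oaz3, a germ-cell antizyme of polyamine control, at 2.36 ± 0.30 (adjusted p = 0.00781), with levels of -3.23, -1.51 and -3.23 after R-SDS in WT NAc, against -4.72, -4.17 and -4.74 in naive WT NAc, where 0 arrays were well above background. No naive array of TLR-DKO NAc was either, so the fitted value is set against background. In TLR-DKO NAc, Oaz3 was well above background on 4 of 4 R-SDS arrays, and the lower bound of its rise is 3.86-fold. In WT NAc it was so on 2 of 3 R-SDS arrays, so the 1.96-fold computed there is not a strict bound. R-SDS replicates 1 and 3, at -3.23, lay near the mean of -3.63 that stood for the naive WT arrays. With genes well above background on all arrays 0 passed. With an array left out, the averages of Klf4 and Pik3r1 ran from 2.42 to 2.81 and from 1.59 to 2.03, and that of Oaz3 from 2.09 to 2.68, but the calls were often lost. The count over both regions was 0 without the slide as a block, 0 without any 1 of naive replicates 1 and 3 and R-SDS replicates 2 and 3 of the NAc or naive replicates 2 and 3 and R-SDS replicate 1 of the mPFC, and 1 and 3 without R-SDS replicates 2 and 3 of the mPFC. The count over both genotypes was 0 without naive replicate 1 of either genotype and 3 without naive replicate 2 of TLR-DKO.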

How the data were processed

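Single-colour Agilent arrays of amplified RNA were used, 26 in 8 groups of region, genotype and stress. The deposited scanner files hold the processed signal, a background-corrected intensity, per the file headers from Feature Extraction 11.0.1.1. The authors' deposited series matrix holds log2 values of 55821 probes that matched the scanner values of each array (Pearson r 1) up to an offset of at most 0.0619, with column medians from -2.90 to -2.21. Both carry the same values, so scale and direction are known, and the reason for the offset is not given in the sources used here. The number of arrays limits the precision. Labels describe 2 independent experiments of pooled mice without tying arrays to them. The p-values therefore measure the spread between samples within the 8 groups of the 26 arrays.

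From 62976 spots per array, control and outlier spots were dropped and 55573 probes kept, of which 29744 had a RefSeq accession and 27980 were named. On each array the 75th percentile of log2 processed signal was subtracted. Probes were kept where 3 or more arrays of either group had them well above background, and of a gene's kept probes the brightest, averaged over the 26 arrays, was tested. limma 3.58.1 in R 4.3.3 was fitted to all 26 arrays as 8 group means with slide as a block, two-sided, with Benjamini-Hochberg adjustment over all genes tested. Interactions and averages are contrasts of the same fit. Groups that do not overlap are those in which every R-SDS array lies on the same side of every naive array. In simulated data of 21445 genes for this comparison, with normal noise, 50 genes each were changed by a log2 of 2, 4, 6 and 8 at once. The fit recovered 23 of 50 genes changed by 2, 47 of 50 changed by 4 and 48 of 50 changed by 6, with 8 false calls. Where fewer genes change the adjusted threshold is stricter, so these shares need not hold for the real data.

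Named genes are the 15 higher and 15 lower with the smallest p among named genes without overlap and with the same sign in both slides, list members chosen for their role or as the 4 of smallest p, Tlr2, Tlr4 and Cx3cr1, any gene past the adjusted threshold, and the 5 named genes of smallest p in each interaction. The comparison, its lists and the rule were chosen with earlier results of these data known, so lists have no test of their own. Motifs and sequences are from RefSeq, assembly GRCm38.p6.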

Additional observations from a re-analysis of the deposited data

How the results depend on the processing

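The count of genes past an adjusted p of 0.05 in WT NAc was 0 under every alternative run, with a lowest adjusted p between 0.133 and 0.806. The count at an unadjusted p under 0.05 (994) was 1603 with the 6 arrays fitted alone, 652 with genes well above background on all 6 arrays and 678 without the slide as a block, and ran from 741 to 1349 with an array left out. Replicate numbers were not treated as pairs. Deviations of same-numbered arrays had correlations of 0.09, -0.03 and 0.11, and those of other pairs ran from -0.17 to 0.11. With 3 arrays a group such values cannot show whether the samples are paired. With a replicate block in place of slide, 0 genes passed and 835 had an unadjusted p under 0.05, and both averages gave 0. Leaving out an array gave 0 to 2 genes for the region interaction (2 without R-SDS replicate 3 of the mPFC, Ttll11 and an unnamed probe) and 0 to 2 for the genotype interaction (2 without naive replicate 2 of TLR-DKO NAc, Npm2 and an unnamed probe). The average over both WT regions (2 genes) gave 8 with array weights, 7 without 2 outlying mPFC arrays, 5 with genes well above background on all arrays, 1 with median centring, no filter or quantile normalization, and 0 with no slide block, only the groups compared or only the wild type, and ran from 0 to 3 with an array left out. The average over both NAc genotypes (1 gene) gave 2 with array weights or without the 2 mPFC arrays, and 0 with normexp on the median signal, quantile normalization, only the groups compared, only the NAc, or genes well above background on all arrays, and ran from 0 to 3 with an array left out. Small changes turned sign: Cx3cr1 to -0.034 without slide or with the replicate block, -0.0083 with quantile normalization, -0.20 within slide 1 and -0.10 to 0.22 with an array left out; Fam107a to -0.020 with array weights, -0.032 with quantile normalization, -0.44 within slide 1 and -0.14 to 0.40 with an array left out; Txnip to 0.18 without slide or with the replicate block, 0.16 within slide 2 and -0.94 to 0.16 with an array left out; Mybbp1a to 0.075 within slide 1; Tlr4 to -0.44 to 0.48 with an array left out. For these the cause was not tested. Of the alternatives for list medians, 110 moved by more than the spread between replicates and 878 by less. Dim genes depend on background correction: with normexp Ms4a7 stood at 1.51 and Tnfsf13b at -1.49. Normexp on the mean signal was not run, since the median signal was used in its place; that and the fit without 2 mPFC arrays were chosen after seeing the data. Signal close to background limits what can be said of genes measured on a single side, and 3 arrays a group limit all of it.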
